A study of Mus musculus with 15 samples.

Results

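Chemokine receptors are the surface receptors through which leukocytes sense chemokines, small secreted proteins that direct their movement. The 8 described here are Ccr1, Ccr3, Cx3cr1, Cxcr2, Cxcr3, Cxcr4 and Cxcr6, which bind chemokines, and Ccrl2, a related receptor of the chemokine receptor family that binds chemerin. They are 8 of the 20145 genes that the array's probes could be named for and 8 of the 13391 genes tested. Their probes were found by gene name, through the RefSeq accession that each probe carries, and not by their signal. The receptors themselves were chosen with earlier results of these data known. In all, 10 probes were found, 2 each for Cx3cr1 and Cxcr6 and 1 for each of the other receptors.

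The study measured gene expression on 15 one-colour microarrays, 5 for each of 3 groups of macrophages taken from mouse liver. The NASH CD11c-positive and the NASH CD11c-negative cells came from male mice lacking the melanocortin 4 receptor (MC4R-KO, genotype of the whole animal), which ate a Western diet for 20 weeks, beginning at 8 weeks of age, and are labelled as having non-alcoholic steatohepatitis (NASH). The wildtype cells came from male wildtype mice on a standard diet, are labelled CD11c-negative, and no CD11c-positive wildtype cells were measured. The mouse strain and the age of the wildtype mice are not given in the sources used here. All cells were released from the liver with collagenase and sorted for a high level of the macrophage surface protein that Adgre1 encodes, and then by CD11c, an integrin chain used to mark dendritic cells and some macrophages. Each sample is a pool of RNA from 7 to 9 mice. Genotype and diet differ together between the NASH and wildtype groups and cannot be told apart. Between NASH CD11c-positive and wildtype cells the CD11c sort differs as well, and cannot be told apart from them.

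Most chemokine receptors couple to inhibitory G proteins, which activate phosphoinositide 3-kinase and Rac to steer a moving cell, and RGS proteins, receptor kinases and arrestins end the signal. In liver, Ccr2 and Cx3cr1 are known for the entry and survival of monocyte-derived macrophages, Cxcr2 for neutrophil recruitment, and Cxcr3 and Cxcr6 for lymphocytes. Ccrl2 differs from the others in that it does not signal through G proteins but holds chemerin at the cell surface.

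Levels are on a log2 scale whose 0 is the 75th percentile of each array, and negative values are dimmer. Each probe has its own brightness, so levels are compared between groups and not between genes. Differences are those of limma, on the log2 scale, ± the standard error (SE), with 5 arrays per group and p-values adjusted over the 13391 genes by the Benjamini-Hochberg method. A call is an adjusted p under 0.05. Counts of calls in a gene list are read against the shares of all genes called, which are given below with the receptors. The 75th percentile of the signal was highest on the NASH CD11c-positive arrays. It was 477.6 to 562.4 intensity units on NASH CD11c-positive, 358.6 to 403.6 on NASH CD11c-negative and 399.3 to 444.6 on wildtype arrays. Over all arrays, 45.8% to 58.0% of the spots were well above background. The labels list 5 samples per group without stating whether each had its own pool of mice, so the p-values reflect the spread among these arrays, part or all of which may be technical. Itgax, which encodes CD11c, averaged 7.29 in NASH CD11c-positive, 5.93 in NASH CD11c-negative and 4.21 in wildtype cells. Adgre1 averaged 7.31, 7.74 and 7.34 in the same order of groups. Mc4r was at background level on all 15 arrays, so its probe does not check the genotype. The macrophage genes Csf1r and Lyz2 were present in all groups, with means of 8.97, 9.34 and 9.29 for Csf1r and of 7.95, 8.21 and 7.31 for Lyz2 in that order.

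All 8 receptors were measured in these cells. Each probe was well above background on all 5 arrays of each group, except that of Ccr1, which was so on 4 of the 5 wildtype arrays. In NASH CD11c-negative against wildtype cells all 8 were called, 5 higher and 3 lower, where 76.8% of all genes tested were called (48.3% higher and 28.5% lower). A larger share of the receptors than of all genes changed by at least 2-fold. The receptors were chosen with earlier results of these data known, so this share and their median are descriptions only. At least 2-fold higher were 4 of the 8 (Cx3cr1, Cxcr4, Ccrl2 and Ccr1), against 5.18% of all genes, and at least 2-fold lower was 1 (Cxcr6), against 6.22%. For all 8 receptors the NASH CD11c-negative arrays were separate from the wildtype arrays, where this held for 64.1% of all genes. The median difference was 1.05 over the 8 receptors and 0.13 over all genes.

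In NASH CD11c-positive against wildtype cells all 8 were again called, 5 higher and 3 lower, where 77.6% of all genes were called (51.3% higher and 26.3% lower). The same 4 receptors were at least 2-fold higher, against 6.65% of all genes, and none was at least 2-fold lower, against 7.02%. The arrays did not overlap for 7 of the 8, where 69.3% of all genes did not, and the median difference was 0.70 over the receptors and 0.16 over all genes. The comparisons share the wildtype arrays, so the similar counts are not independent of each other.

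In NASH CD11c-positive against NASH CD11c-negative cells 6 of the 8 were called, 2 higher (Cxcr6 and Cxcr3) and 4 lower (Cxcr2, Cx3cr1, Ccr3 and Cxcr4), where 53.1% of all genes were called (29.9% higher and 23.2% lower). A lower level by at least 2-fold was found for 1, Cxcr2, against 1.19% of all genes, and a higher level by at least 2-fold for none, against 1.66%. The arrays did not overlap for 3 of the 8, where 39.5% of all genes did not. The median difference was -0.09 over the receptors and 0.01 over all genes, and the receptors moved in opposite directions.

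**Figure D1:**
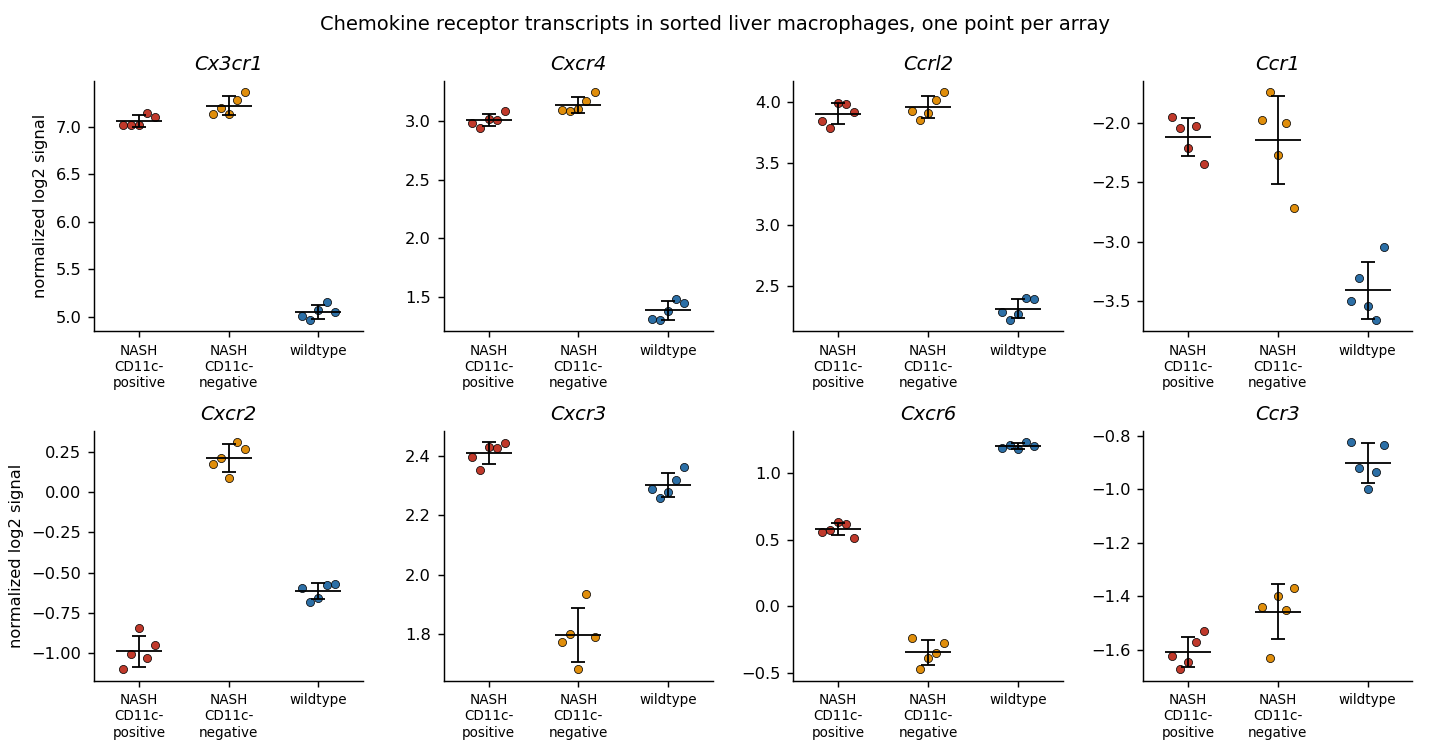
Each panel plots the normalized log2 signal of a chemokine receptor, with 1 point per array, the mean as a horizontal line and the SD as an error bar, in NASH CD11c-positive, NASH CD11c-negative and wildtype cells (5 arrays each). Axes differ between panels. Cx3cr1, Cxcr4, Ccrl2 and Ccr1 lie higher in both NASH groups than in wildtype cells, Cxcr2 is highest in NASH CD11c-negative cells, and Cxcr3 and Cxcr6 are lowest there.

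Cx3cr1, the receptor of the membrane-bound chemokine fractalkine and a marker of monocyte-derived cells, had the largest difference of the 8. Its levels were 7.02, 7.02, 7.02, 7.15 and 7.10 on the NASH CD11c-positive arrays. They were 7.13, 7.19, 7.13, 7.28 and 7.36 on the NASH CD11c-negative arrays, and 5.01, 4.97, 5.07, 5.16 and 5.06 on the wildtype arrays. Every NASH array lay above every wildtype array, while the NASH groups overlapped each other. Cx3cr1 was 4.49-fold higher in NASH CD11c-negative than in wildtype cells (2.17 ± 0.049, adjusted p = 2.19e-14 by limma), and 4.02-fold higher in NASH CD11c-positive than in wildtype cells (2.01 ± 0.049). With quantile normalization these differences were 1.75 and 1.70, a shift larger than the SE. The step between the NASH groups was small, -0.16 ± 0.049 in CD11c-positive against CD11c-negative cells (adjusted p = 0.0145). The dimmer probe of Cx3cr1 gave 2.08 and 1.99 against wildtype cells in the CD11c-negative and CD11c-positive cells, and -0.09 between the NASH groups, which did not pass in a fit over all probes (adjusted p = 0.0876). The brighter probe lost this call with normexp background correction (-0.07) and quantile normalization (-0.05).

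Cxcr4, the receptor of Cxcl12, which holds leukocytes in the bone marrow and in tissues, had levels of 2.98, 2.94, 3.02, 3.01 and 3.09 in NASH CD11c-positive cells. It had 3.096, 3.08, 3.103, 3.17 and 3.25 in NASH CD11c-negative cells, and 1.31, 1.31, 1.38, 1.48 and 1.45 in wildtype cells. Both NASH groups were far above the wildtype arrays, and the lowest CD11c-negative array fell just under the highest CD11c-positive one. Cxcr4 was 3.37-fold higher in NASH CD11c-negative than in wildtype cells (1.75 ± 0.043, adjusted p = 5.69e-14 by limma) and 3.08-fold higher in NASH CD11c-positive than in wildtype cells (1.62 ± 0.043). With quantile normalization Cxcr4 was 1.58 and 1.45 higher. Between the NASH groups it was -0.13 ± 0.043 in CD11c-positive cells (adjusted p = 0.0194), and -0.05 and not called with normexp background correction (adjusted p = 0.412).

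Ccrl2, the chemerin-binding receptor, had levels of 3.85, 3.79, 3.99, 3.98 and 3.92 in NASH CD11c-positive cells. The NASH CD11c-negative arrays had 3.92, 3.86, 3.91, 4.02 and 4.08, and the wildtype arrays 2.29, 2.23, 2.27, 2.41 and 2.40. The NASH groups lay over each other, and both were clear of the wildtype arrays. Ccrl2 was 3.11-fold higher in NASH CD11c-negative (1.64 ± 0.053) and 3.00-fold higher in NASH CD11c-positive (1.59 ± 0.053) than in wildtype cells. With quantile normalization Ccrl2 was 1.41 and 1.37 higher. Between NASH CD11c-positive and CD11c-negative cells it differed by -0.05, with a 95% interval of -0.17 to 0.06 (adjusted p = 0.425 by limma). With the slide as a block that difference was -0.08 and passed (adjusted p = 0.00646).

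Ccr1, a receptor of inflammatory CC chemokines such as Ccl3 and Ccl5, had the widest spread between arrays of the 8. Its levels were -1.95, -2.04, -2.21, -2.03 and -2.35 in NASH CD11c-positive cells. They were -1.98, -1.74, -2.27, -2.00 and -2.71 in NASH CD11c-negative cells, and -3.50, -3.30, -3.54, -3.66 and -3.05 in wildtype cells. The groups still did not overlap against wildtype, and the CD11c-negative replicate 5 was the lowest NASH array. Ccr1 was 2.41-fold higher in NASH CD11c-negative (1.27 ± 0.16, adjusted p = 4.41e-06 by limma) and 2.45-fold higher in NASH CD11c-positive (1.29 ± 0.16) than in wildtype cells. Between the NASH groups it was 0.03 in CD11c-positive against CD11c-negative cells, with a 95% interval of -0.32 to 0.37. Normexp background correction gave 0.64 and 0.54 for the differences from wildtype in the CD11c-negative and CD11c-positive cells, both still called.

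The start regions of these 4 genes are shown because they were the 4 that were higher in both NASH groups, and because they differ in composition. Each is the 250 bases before the annotated RefSeq start in the mouse build GRCm38.p6, 5′ to 3′ in the direction of the gene, and all 4 genes lie on the minus strand. They are Cx3cr1 at chr9:120068297-120068546, Cxcr4 at chr1:128592300-128592549, the first of 3 annotated starts of Ccrl2 at chr9:111057519-111057768, and Ccr1 at chr9:123968693-123968942. Capitals mark matches, on either strand, to 9 short motifs. The core promoter motifs were the TATA box (TATAAA), the CCAAT box (its name gives its letters) and the GC box (GGGCGG). For factors active in macrophages the letters were GAGGAAG for PU.1, then TGANTCA as the site of AP-1. The hypoxia factor HIF was searched as ACGTG and the C/EBP family as TTGCNNAA. The interferon-stimulated response element and the NF-kB site are given by name alone.
Cx3cr1: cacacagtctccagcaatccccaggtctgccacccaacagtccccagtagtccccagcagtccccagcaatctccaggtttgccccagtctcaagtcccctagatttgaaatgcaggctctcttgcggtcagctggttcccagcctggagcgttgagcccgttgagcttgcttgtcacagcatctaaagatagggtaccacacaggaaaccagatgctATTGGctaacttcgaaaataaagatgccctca
Cxcr4: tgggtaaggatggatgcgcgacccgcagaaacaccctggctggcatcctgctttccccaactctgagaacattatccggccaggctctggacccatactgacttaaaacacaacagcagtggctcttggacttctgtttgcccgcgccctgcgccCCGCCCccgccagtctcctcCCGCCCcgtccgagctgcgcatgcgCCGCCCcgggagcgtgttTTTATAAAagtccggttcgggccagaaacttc
Ccrl2: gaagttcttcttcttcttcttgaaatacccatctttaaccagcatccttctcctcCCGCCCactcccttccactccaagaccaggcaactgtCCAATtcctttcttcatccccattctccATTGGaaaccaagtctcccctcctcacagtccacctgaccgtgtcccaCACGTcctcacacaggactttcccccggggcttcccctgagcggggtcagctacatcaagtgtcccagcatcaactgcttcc
Ccr1: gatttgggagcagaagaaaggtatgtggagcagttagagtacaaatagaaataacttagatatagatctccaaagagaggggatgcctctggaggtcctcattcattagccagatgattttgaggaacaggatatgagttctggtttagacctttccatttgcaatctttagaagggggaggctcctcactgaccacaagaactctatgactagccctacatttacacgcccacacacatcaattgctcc

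The Cxcr4 window was rich in CpG, with 19 CpG dinucleotides and 61.2% G and C, against a median of 6 CpG and 52.4% over the 32851 windows of all annotated starts. It held 3 GC boxes, at -95, -75 and -50 from the start, and a TATA box at -30 whose letters overlap a second match on the other strand at -32. The Ccrl2 window had 5 CpG, a GC box at -195, CCAAT boxes at -158 and -130 and an ACGTG match at -82. The Cx3cr1 window had 4 CpG and a CCAAT box at -32, and the Ccr1 window had 1 CpG, 43.6% G and C and none of the 9 motifs.

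Among all windows, 32.7% held the GC box, 33.9% CCAAT, 12.4% the TATA box and 16.6% ACGTG. PU.1 letters were in 10.6% of windows and in that of Cxcr3 alone among the 8 receptors. AP-1 letters (6.75% of windows) and NF-kB letters (0.356%) were in that of Ccr3 alone. The C/EBP letters (9.56%) and the interferon response element (2.98%) were in none of the 8. A match describes letters in this window only, and the binding of a factor was not measured.

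Cxcr2, the neutrophil receptor for Cxcl1, Cxcl2 and related chemokines, moved in opposite directions in the NASH groups. Its levels were -1.10, -1.01, -0.84, -1.03 and -0.95 in NASH CD11c-positive cells. They were 0.17, 0.21, 0.08, 0.31 and 0.27 in NASH CD11c-negative cells, and -0.60, -0.68, -0.66, -0.58 and -0.57 in wildtype cells. The 3 groups were fully separate, in the order CD11c-negative, wildtype, CD11c-positive. Cxcr2 was 2.29-fold lower in NASH CD11c-positive than in NASH CD11c-negative cells (-1.19 ± 0.050, adjusted p = 9.34e-11 by limma), the largest difference of the 8 receptors between the NASH groups. Against wildtype cells it was 1.77-fold higher in NASH CD11c-negative cells (0.82 ± 0.050) and 1.29-fold lower in NASH CD11c-positive cells (-0.37 ± 0.050).

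Markers of neutrophils moved with Cxcr2 between the NASH groups. The summed signal of 11 measured neutrophil genes, as a percentage of the wildtype mean, was 156% to 164% on the NASH CD11c-positive arrays, 388% to 425% on the NASH CD11c-negative arrays and 97.9% to 102% on the wildtype arrays. Of these 11, 10 rose and 1 fell in NASH CD11c-negative than in wildtype cells, and 10 were lower in NASH CD11c-positive than in NASH CD11c-negative cells. The brightest, S100a9 and S100a8, which encode calprotectin, averaged 8.39 and 6.94 in NASH CD11c-positive, 9.52 and 8.68 in NASH CD11c-negative and 7.71 and 6.05 in wildtype cells. Against wildtype, the NASH CD11c-positive cells had higher neutrophil markers (10 of 11 higher) and lower Cxcr2. The part of neutrophils in the Cxcr2 signal was not tested. In sorted pools such as these, fewer cells of a type and less RNA per cell cannot be told apart.

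Cxcr6, the receptor of Cxcl16 on resident T cells and natural killer (NK) cells, was lower in both NASH groups than in wildtype cells. Its levels were 0.56, 0.57, 0.63, 0.61 and 0.51 in NASH CD11c-positive cells. They were -0.24, -0.47, -0.39, -0.35 and -0.28 in NASH CD11c-negative cells, and 1.19, 1.21, 1.18, 1.23 and 1.20 in wildtype cells. No 2 groups overlapped. Cxcr6 was 2.93-fold lower in NASH CD11c-negative than in wildtype cells (-1.55 ± 0.040, adjusted p = 8.31e-14 by limma) and 1.54-fold lower in NASH CD11c-positive than in wildtype cells (-0.62 ± 0.040). It was 1.90-fold higher in NASH CD11c-positive than in NASH CD11c-negative cells (0.93 ± 0.040, adjusted p = 1.17e-10). Its dimmer probe gave -1.56, -0.65 and 0.90 for the same 3 differences.

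Cxcr3, the receptor of the interferon-induced chemokines Cxcl9 and Cxcl10, had levels of 2.40, 2.35, 2.43, 2.43 and 2.44 in NASH CD11c-positive cells. It had 1.77, 1.80, 1.68, 1.93 and 1.79 in NASH CD11c-negative cells, and 2.29, 2.26, 2.28, 2.32 and 2.36 in wildtype cells. The CD11c-negative NASH arrays lay below both other groups, whose arrays overlapped by a narrow margin. Cxcr3 was 1.42-fold lower in NASH CD11c-negative than in wildtype cells (-0.51 ± 0.040) and 1.53-fold higher in NASH CD11c-positive than in NASH CD11c-negative cells (0.61 ± 0.040, adjusted p = 1.16e-08 by limma). In NASH CD11c-positive against wildtype cells it was 0.11 ± 0.040 (adjusted p = 0.0222), under the median of all genes, and -0.11 with quantile normalization (adjusted p = 0.00276). It lost the call, at 0.10 and 0.09, within slide 1 and within slide 2, at 0.10 without wildtype replicate 2 or without NASH CD11c-positive replicate 5, and at 0.09 with normexp correction. The direction of Cxcr3 between NASH CD11c-positive and wildtype cells therefore depends on the scaling.

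Markers of NK cells and T cells were measured beside these receptors. The summed signal of the 10 NK cell genes was 96.1% to 102% of the wildtype mean on the NASH CD11c-positive arrays, 66.4% to 70.8% on the NASH CD11c-negative arrays and 98.6% to 102% on the wildtype arrays. Of the 10, 7 were lower in NASH CD11c-negative than in wildtype cells and 7 were higher in NASH CD11c-positive than in NASH CD11c-negative cells. The brightest of them, Nkg7 and Gzma, averaged 3.60 and 1.03 in NASH CD11c-positive, 3.45 and -0.28 in NASH CD11c-negative and 3.45 and 2.10 in wildtype cells. The sum of 11 T cell genes was 65.0% to 74.99%, 61.1% to 75.8% and 96.8% to 103% in the same groups, so it separated the NASH cells from wildtype but not from each other. Of the 11 T cell genes, 8 were lower in NASH CD11c-negative than in wildtype cells and 8 higher in NASH CD11c-positive than in NASH CD11c-negative cells. The brightest T cell genes were Cd4, at 3.31, 3.50 and 2.85 in these groups, and Cd3e, at 1.95, 2.21 and 2.28. Cd247, the T cell receptor zeta chain, was not well above background on any array. The part of lymphocytes in the Cxcr3 and Cxcr6 signals was not tested.

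**Figure D2:**
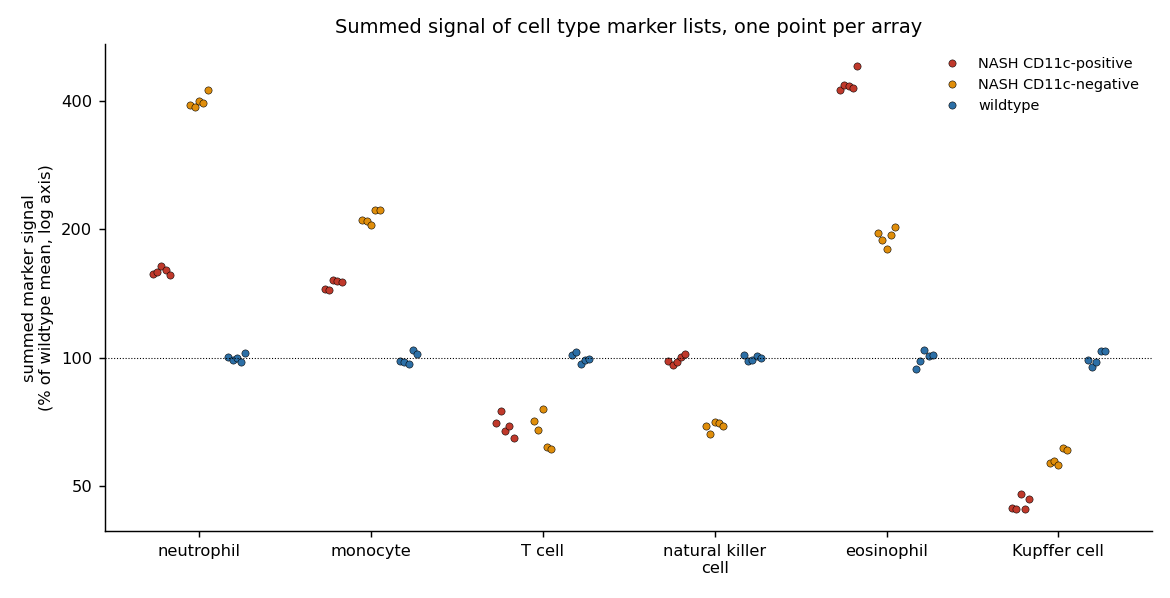
The summed linear signal of cell type marker genes is plotted for each array as a percentage of the wildtype mean, on a log axis, for NASH CD11c-positive, NASH CD11c-negative and wildtype cells (5 arrays each). The neutrophil sum is highest in NASH CD11c-negative cells (388% to 425%), and the NK cell sum is lowest there (66.4% to 70.8%).

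Ccr3, the eotaxin receptor of eosinophils and basophils, was lower in both NASH groups. Its levels were -1.62, -1.67, -1.64, -1.57 and -1.53 in NASH CD11c-positive cells. They were -1.44, -1.63, -1.40, -1.45 and -1.37 in NASH CD11c-negative cells, and -0.82, -0.92, -0.999, -0.93 and -0.83 in wildtype cells. Wildtype arrays were above all NASH arrays, and the CD11c-negative replicate 2 lay among the CD11c-positive arrays. Ccr3 was 1.47-fold lower in NASH CD11c-negative (-0.56 ± 0.050) and 1.63-fold lower in NASH CD11c-positive (-0.71 ± 0.050, adjusted p = 6.55e-09 by limma) than in wildtype cells. Normexp correction gave -0.32 for NASH CD11c-negative against wildtype cells. Between the NASH groups it was -0.15 ± 0.050 in CD11c-positive cells (adjusted p = 0.0204), and it lost the call without NASH CD11c-negative replicate 5 (-0.13), within slide 1 (-0.16) and with quantile normalization (-0.10).

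The granule genes that define eosinophils, Epx and Prg3, were not well above background on any array, nor were the basophil and mast cell genes Mcpt8, Ms4a2 and Cd200r3. The sum of the 4 measured eosinophil genes was 424% to 483% of the wildtype mean in NASH CD11c-positive, 180% to 203% in NASH CD11c-negative and 94.4% to 104% in wildtype cells. Siglecf, the brightest of the 4, was 2.95 higher on the log2 scale in NASH CD11c-positive than in wildtype cells, while Prg2 differed by -1.48, Il5ra by -1.33 and Alox15 by -2.27 (4, 3 and 1 of the 5 NASH CD11c-positive arrays well above background). The sum of the 3 measured basophil and mast cell genes was 44.3% to 60.5%, 61.3% to 68.8% and 90.1% to 109% in the same groups. Its brightest members, Tpsb2 and Gata2, averaged -1.59 and -2.91 in NASH CD11c-positive, -1.54 and -2.17 in NASH CD11c-negative and -1.32 and -1.44 in wildtype cells. Whether any of these cells contributed to the Ccr3 signal was not tested.

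The markers of monocytes and Kupffer cells, the resident macrophages of the liver, stood beside the 4 receptors that were higher in NASH cells. The sum of 9 monocyte genes, Ccr2 among them, was 144% to 152% in NASH CD11c-positive, 205% to 222% in NASH CD11c-negative and 97.0% to 104% in wildtype cells. Of the 9, 6 were higher, 1 lower and 2 not called in NASH CD11c-negative against wildtype cells (median 0.34). In NASH CD11c-positive against wildtype cells 6 of these monocyte genes were higher, 2 lower and 1 not called (median 0.73). The brightest, Plac8 and Hp, averaged 5.22 and 4.97 in NASH CD11c-positive, 5.49 and 5.97 in NASH CD11c-negative and 5.71 and 4.24 in wildtype cells. The sum of 10 Kupffer cell genes was 44.2% to 47.9%, 56.2% to 61.4% and 95.3% to 104% in the same groups, and all 10 were lower in both NASH groups than in wildtype cells. The brightest, Cd5l and Vsig4, averaged 9.36 and 7.97 in NASH CD11c-positive, 9.58 and 8.19 in NASH CD11c-negative and 9.77 and 9.18 in wildtype cells. The part of a changed mixture of these cells in the receptor levels was not tested.

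**Figure D3:**
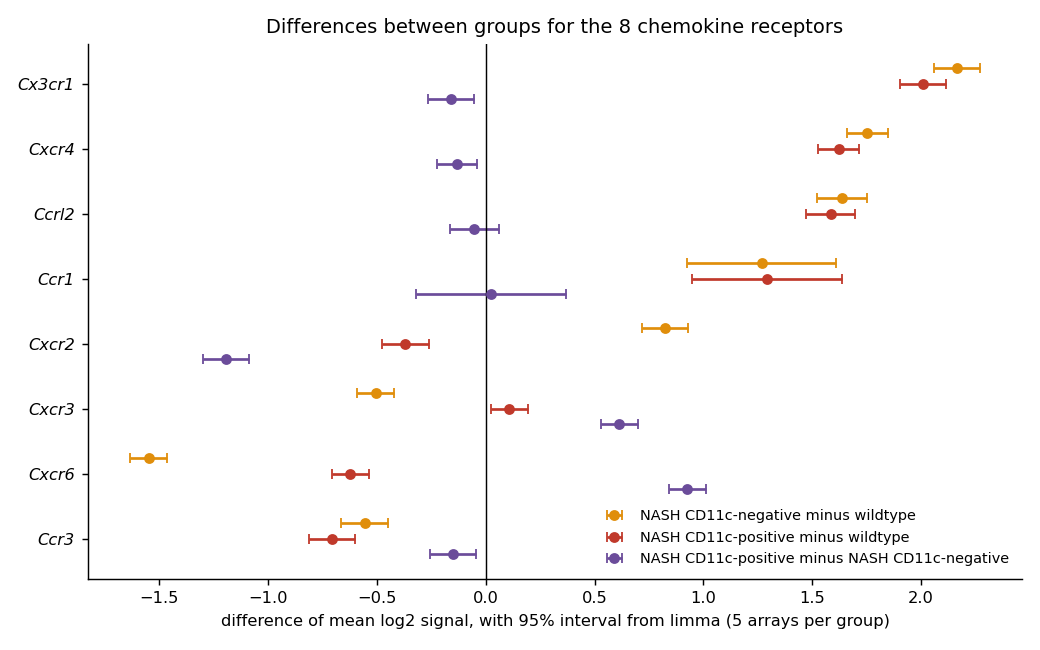
Differences of mean log2 signal are shown for the 8 receptors in the 3 comparisons, with 95% intervals from limma (5 arrays per group). Cx3cr1, Cxcr4, Ccrl2 and Ccr1 are higher against wildtype in both NASH groups by 1.27 to 2.17, and the largest differences between the NASH groups are those of Cxcr2 (-1.19), Cxcr6 (0.93) and Cxcr3 (0.61).

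The receptors' genes lie on chromosome 9 (5 of 8), chromosome 1 (Cxcr2 and Cxcr4) and the X chromosome (Cxcr3). Of those on chromosome 9, Cxcr6, Ccr1 and Ccr3 stand in a row of neighbouring receptor genes in the order Cxcr6, Xcr1, Ccr1, Ccr1l1, Ccr3 and Ccr2. The genes of this row moved in both directions. In NASH CD11c-negative against wildtype cells, Ccr1, Ccr1l1 and Ccr2 rose (1.27, 1.16 and 1.74), while Cxcr6 and Ccr3 fell by 1.55 and 0.56. Xcr1, a marker of dendritic cells that lies between Cxcr6 and Ccr1, was at background in all NASH CD11c-negative samples. It was at least 2.51-fold lower there than in wildtype cells, and at least 3.24-fold higher in NASH CD11c-positive than in NASH CD11c-negative cells. In such bounds the dimmer group takes, on each array, the faintest signal that still counted as above background. The bounds are those of the main processing. Over the alternatives the fitted differences of Xcr1 came down to -0.72 and 0.84 on the log2 scale. Both are smaller in size than its bounds in these comparisons (1.33 and 1.69).

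Among the 17 other chemokine and atypical receptors described here, 14 were measured. Of these, 4 rose, 7 fell and 3 were not called in NASH CD11c-negative against wildtype cells, with a median difference of -0.73. In NASH CD11c-positive against wildtype cells 6 were higher, 5 lower and 3 not called (median 0.32), and between NASH CD11c-positive and CD11c-negative cells 6 were higher, 4 lower and 4 not called (median 0.09). Of all genes, 76.8%, 77.6% and 53.1% were called in these 3 comparisons in turn, with medians of 0.13, 0.16 and 0.01. Ccr2, the receptor that brings monocytes out of the bone marrow, rose with the 4 receptors above, by 1.74 ± 0.034 in NASH CD11c-negative and 1.87 ± 0.034 in NASH CD11c-positive against wildtype cells. Ccr1l1, a relative of Ccr1, rose by 1.16 ± 0.056 and 1.30 ± 0.056 in the same comparisons. Ackr1, an atypical receptor that binds chemokines without signalling, rose by 1.55 ± 0.059 and 1.16 ± 0.059.

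Ccr7, the receptor that guides dendritic cells and T cells to lymph nodes, had the direction of Cxcr3 and Cxcr6 between the NASH groups. Unlike Cxcr6 (-0.62), Ccr7 was higher in NASH CD11c-positive than in wildtype cells, by 1.45. It fell by 1.499 in NASH CD11c-negative against wildtype cells (SE 0.046) and was 2.95 ± 0.046 higher in NASH CD11c-positive than in NASH CD11c-negative cells. Ccr6, of lymphocytes and some dendritic cells, differed by -1.73 ± 0.082 and 1.43 ± 0.082 in these comparisons (-1.07 and 0.83 with normexp correction), and Ccr9, of gut-homing lymphocytes and plasmacytoid dendritic cells, by -1.16 ± 0.12 and 1.4998 ± 0.12, with 3 of 5 NASH CD11c-negative arrays well above background (-0.51 and 0.59 with normexp correction). Cxcr5, the B cell follicle receptor, was lower in both NASH groups than in wildtype cells, by -1.99 ± 0.089 in CD11c-positive and -2.36 ± 0.089 in CD11c-negative cells. The sum of 7 B cell genes was 34.5% to 38.8% of the wildtype mean in NASH CD11c-positive, 57.9% to 68.9% in NASH CD11c-negative and 94.4% to 106.7% in wildtype cells, with 7 and 6 of the 7 lower in the NASH CD11c-positive and CD11c-negative cells than in wildtype cells. Its brightest members, Jchain and Cd79b, averaged 3.34 and 3.59 in NASH CD11c-positive, 4.37 and 4.27 in NASH CD11c-negative and 5.21 and 4.31 in wildtype cells. The B cell factor gene Pax5 was well above background on 1 NASH CD11c-negative array and on no other. The part of B cells in the Cxcr5 signal was not tested. Dendritic cell markers, Ccr7 and Xcr1 among them, summed to 117% to 129% of the wildtype mean in NASH CD11c-positive, 52.8% to 59.5% in NASH CD11c-negative and 94.98% to 105% in wildtype cells. The brightest of the 10, Wdfy4 and Batf3, averaged 5.87 and 4.11 in NASH CD11c-positive, 4.70 and 4.08 in NASH CD11c-negative and 5.54 and 4.47 in wildtype cells.

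The other atypical receptors differed in how they moved. Ackr2, a scavenger of inflammatory CC chemokines, was -0.57 ± 0.051 in NASH CD11c-positive against CD11c-negative cells and -0.07 and not called in NASH CD11c-negative against wildtype cells (adjusted p = 0.254 by limma), where quantile normalization gave -0.13 and a call. Ackr4 was at background in all NASH CD11c-positive samples and was at least 7.505-fold lower there than in wildtype cells. Normexp correction gave -1.50 for this difference, smaller in size than that bound (2.91 on the log2 scale). Ackr3, which scavenges Cxcl12, was well above background on 3 NASH CD11c-positive, 5 NASH CD11c-negative and 1 wildtype array, with means of -3.42, -2.60 and -4.06. It was called in the same directions as Ackr1 in all 3 comparisons, at 1.46 in NASH CD11c-negative against wildtype cells (0.54 with normexp correction). Its difference of 0.63 in NASH CD11c-positive against wildtype cells lost the call with normexp correction (0.07) and within slide 1 (0.31), and that of -0.83 between the NASH groups lost it within slide 1 (-0.90). Cxcr1, the relative of Cxcr2, was at least 1.98-fold lower in NASH CD11c-positive than in wildtype cells and was above background on 1 of the 5 NASH CD11c-negative arrays. Over the alternatives its fitted difference between NASH CD11c-positive and wildtype cells came down to -0.62, against a bound of 0.99 on the log2 scale. It was not called under 1 alternative. Cmklr1, the signalling receptor of chemerin, was not called in any comparison over all arrays. Without NASH CD11c-positive replicate 4, it was called lower than in wildtype cells in NASH CD11c-positive (-0.45) and NASH CD11c-negative cells (-0.30). Cmklr1 was not called under 25 and 24 of the 27 alternatives in these comparisons, so this array was not the only one to matter. Ccr8, also not called, was called in NASH CD11c-negative against wildtype cells with normexp correction (0.23) and without NASH CD11c-negative replicate 5 (0.41). Its difference of 0.31 in NASH CD11c-positive against wildtype cells passed without NASH CD11c-negative replicate 5 (0.31), without wildtype replicate 2 (0.38) and with quantile normalization (0.46). Between the NASH groups, normexp correction gave -0.21 and a call for Ccr8, and slide 1 alone gave -0.20 and a call for Cmklr1. Ccr4, Ccr10 and Gpr1 did not pass the filter on dim probes.

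**Figure D4:**
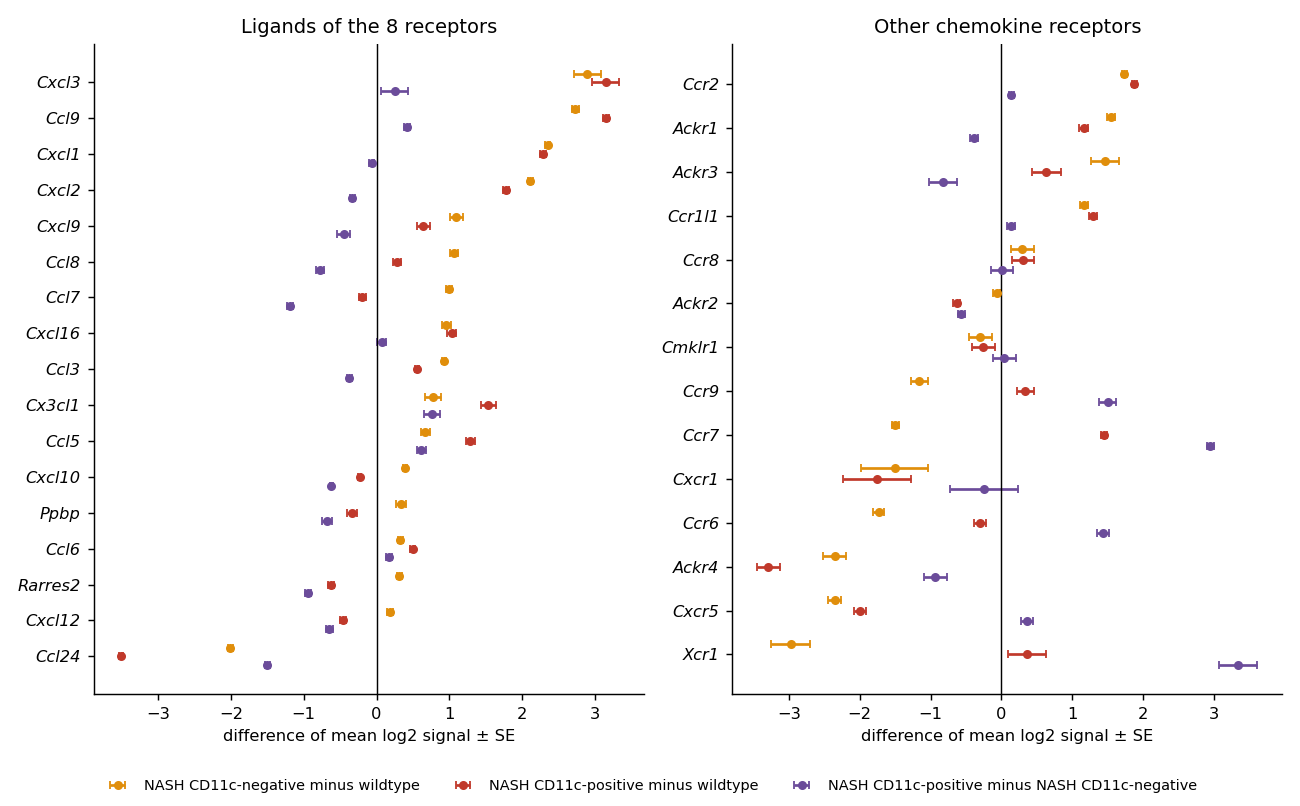
Differences of mean log2 signal ± SE are shown for the measured ligands of the 8 receptors (left) and for the other chemokine receptors (right) in the 3 comparisons, with 5 arrays per group. The fitted values of Cxcl3, Xcr1, Ackr4 and Cxcr1 include groups not well above background, for which the text gives bounds. Ccl9 and Cxcl1 are the largest fully measured rises against wildtype in NASH CD11c-negative cells (2.73 and 2.35), and Ccl24 is the ligand that fell there, by 2.01.

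The ligands of the receptors were mostly higher in NASH CD11c-negative than in wildtype cells. Of 20 listed, 17 were measured, and 16 rose and 1 fell in NASH CD11c-negative against wildtype cells, with a median of 0.93 where that of all genes was 0.13. The NASH CD11c-positive cells had 11 higher and 6 lower than wildtype cells (median 0.56, all genes 0.16). Between NASH CD11c-positive and CD11c-negative cells 4 were higher, 10 lower and 3 not called (median -0.37, all genes 0.01). Over all genes, 48.3%, 51.3% and 29.9% were called higher in these comparisons in turn, and 28.5%, 26.3% and 23.2% lower. Ccl11 and Cxcl5 were not well above background on any array, and no probe was named for Cxcl11.

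Of the measured ligands of Cxcr2, Cxcl1, Cxcl2 and Cxcl3 rose in both NASH groups, and Ppbp did so only in CD11c-negative cells. Cxcl1 rose by 2.35 ± 0.036 in NASH CD11c-negative and by 2.29 ± 0.036 in NASH CD11c-positive against wildtype cells, and Cxcl2 by 2.11 ± 0.039 and 1.78 ± 0.039. Cxcl3, at background in all wildtype samples, was at least 2.45-fold higher in NASH CD11c-negative cells (4 of 5 arrays well above background) and at least 2.92-fold higher in NASH CD11c-positive cells. Over the alternatives its fitted differences came down to 0.80 and 0.77, below these bounds (1.29 and 1.54 on the log2 scale). The platelet chemokine Ppbp was 0.34 ± 0.068 and -0.34 ± 0.068 against wildtype in the CD11c-negative and CD11c-positive cells, and the second value lost the call with quantile normalization (-0.19) and within slide 2 (-0.28). Cxcl1, Cxcl2 and Cxcl3 thus remained above wildtype in the CD11c-positive cells, in which Cxcr2 itself was below wildtype.

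The ligands that Ccr1 can bind include Ccl3, Ccl5, Ccl6, Ccl7, Ccl8 and Ccl9, all made by myeloid cells. Ccl9 was 2.73 ± 0.043 higher in NASH CD11c-negative and 3.15 ± 0.043 higher in NASH CD11c-positive than in wildtype cells, and Ccl5 was 0.67 ± 0.065 and 1.29 ± 0.065 higher. Ccl3 was 0.93 ± 0.031 and 0.56 ± 0.031 higher in the same comparisons, and Ccl8 was 1.07 ± 0.055 and 0.29 ± 0.055 higher. Ccl7 was 1.00 ± 0.042 higher in NASH CD11c-negative cells but -0.19 ± 0.042 in NASH CD11c-positive cells. Ccl6 was 0.33 ± 0.036 and 0.50 ± 0.036 higher, and quantile normalization turned the first to -0.15 and gave 0.20 for the second. With quantile normalization Ccl8 was 0.015 and not called in NASH CD11c-positive against wildtype cells, and Ccl7 was -0.43. Ccl3 was then 0.48 in NASH CD11c-negative and 0.19 in NASH CD11c-positive against wildtype cells, and Ccl5 was 0.33 in NASH CD11c-negative against wildtype cells. The difference of Ccl7 in NASH CD11c-positive against wildtype cells lost the call with normexp correction (-0.13).

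Ccl24, the eotaxin that binds Ccr3, was the 1 measured ligand that fell in NASH CD11c-negative against wildtype cells. In NASH CD11c-positive against wildtype cells Ccl24 was 1 of the 6 ligands that were lower. It was -2.01 ± 0.034 in NASH CD11c-negative and -3.51 ± 0.034 in NASH CD11c-positive against wildtype cells, and -1.501 ± 0.034 between the NASH groups (CD11c-positive against CD11c-negative).

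Single ligands of the other receptors differed in their patterns. Cx3cl1, fractalkine, rose by 0.77 ± 0.11 in NASH CD11c-negative and by 1.54 ± 0.11 in NASH CD11c-positive against wildtype cells, and by 0.40 and 0.71 with normexp correction. Cxcl16, the ligand of Cxcr6, rose by 0.96 ± 0.061 and 1.03 ± 0.061, while Cxcr6 fell by 1.55 and 0.62. Cxcl12, the ligand of Cxcr4, was 0.19 ± 0.043 and -0.46 ± 0.043 in the same comparisons, and 0.49 and -0.14 where the mean of its probes replaced the brightest. Cxcl9 and Cxcl10, the ligands of Cxcr3, were 1.09 ± 0.088 and 0.39 ± 0.023 higher in NASH CD11c-negative than in wildtype cells, where Cxcr3 was lower. In NASH CD11c-positive against wildtype cells Cxcl9 was 0.64 ± 0.088 and Cxcl10 was -0.23 ± 0.023. With quantile normalization Cxcl10 was 0.03 and not called in NASH CD11c-negative against wildtype cells (adjusted p = 0.298 by limma). It was then -0.54, and Cxcl9 0.38, in NASH CD11c-positive against wildtype cells. Rarres2, which encodes chemerin, was 0.32 ± 0.040 and -0.63 ± 0.040 in NASH CD11c-negative and CD11c-positive against wildtype cells, while Ccrl2 was higher in both.

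The 30 genes of signal transduction listed were all measured, and 21 were higher, 4 lower and 5 not called in NASH CD11c-negative against wildtype cells, with a median of 0.25 (all genes 0.13). Against wildtype cells, the counts in NASH CD11c-positive cells were 22, 3 and 5 (median 0.28, all genes 0.16), and between NASH CD11c-positive and CD11c-negative cells 8, 8 and 14 (median 0.03, all genes 0.01). Of all genes, 76.8%, 77.6% and 53.1% were called in these comparisons in turn, so calls of signalling genes in either direction were near the background. By direction, 48.3% and 51.3% of all genes were higher, and 28.5% and 26.3% lower, in NASH CD11c-negative and CD11c-positive against wildtype cells. Signalling genes were more often higher and less often lower than that in both. The counts of signalling genes depended on the scaling, and with quantile normalization 11 rose and 10 fell in NASH CD11c-negative against wildtype cells, and 14 rose and 9 fell in NASH CD11c-positive against wildtype cells. The RGS genes, whose proteins end G protein signals, held the largest rises in NASH CD11c-negative against wildtype cells. Rgs1 rose by 1.26 ± 0.039 and Rgs16 by 1.27 ± 0.26 there, and Rgs16 by 1.68 ± 0.26 in NASH CD11c-positive against wildtype cells, with 3 of 5 wildtype arrays well above background for Rgs16. Normexp correction gave 0.53 and 0.61 for Rgs16 in these comparisons, and quantile normalization gave 0.77 for Rgs1 in NASH CD11c-negative against wildtype cells. Pik3r5, a regulatory subunit of phosphoinositide 3-kinase gamma, was 1.18 ± 0.059 higher in NASH CD11c-positive than in wildtype cells and 0.59 ± 0.059 higher than in NASH CD11c-negative cells. Rgs1 was -0.33 ± 0.039 in NASH CD11c-positive against NASH CD11c-negative cells, and -0.19 with quantile normalization. The receptor kinase gene Grk6 was -0.35 ± 0.050 in NASH CD11c-negative and -0.49 ± 0.050 in NASH CD11c-positive against wildtype cells, and -0.94 and -0.85 with the mean of its probes.

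The genes whose pattern over the 15 arrays was most like that of each receptor were found by the root mean square difference of the log2 values, each gene centred on its own mean. They were Ms4a7 (0.0846) and Maff (0.0914) for Cx3cr1, Atf3 (0.0515) and Bcl2a1d (0.0525) for Cxcr4, and Bcl2a1d (0.0446) and Adam15 (0.0603) for Ccrl2. Cxcr2 was nearest to Ccl2 (0.0726) and Rprl2 (0.0882), and Ccr3 to Socs1 (0.0570) and Epor (0.0671). Cxcr3 was nearest to Hip1 (0.0501) and Tmem131 (0.0550), and Cxcr6 to Lck (0.0745), a T cell kinase, and Itgb7 (0.0934), an integrin chain. For Ccr1, whose arrays varied most, the nearest were Slc14a2 (0.229) and its chromosome neighbour Ccr1l1 (0.232). These are descriptions over arrays that share their 3 groups, so a gene with similar group means is near by construction. As an example, Ccl2, a ligand of Ccr2, was 0.82 ± 0.032 in NASH CD11c-negative and -0.26 ± 0.032 in NASH CD11c-positive against wildtype cells, beside 0.82 and -0.37 for Cxcr2.

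Each slide held arrays of all 3 groups, and within each slide every difference of the 8 receptors kept its direction except that of Ccr1 between the NASH groups, which was -0.0012 and 0.16. Within slide 1 and slide 2, Cx3cr1 was 2.13 and 2.22 higher in NASH CD11c-negative than in wildtype cells, Cxcr6 was -1.56 and -1.53, and Ccr1 was 1.45 and 0.99. Cxcr2 was -1.21 and -1.23 in NASH CD11c-positive against NASH CD11c-negative cells on these slides. The median of all genes was itself above 0 in both comparisons with wildtype (0.13 and 0.16), and it was close to 0 after quantile normalization (-0.0027 and 0.039). Relative to the median of all genes, the receptors differed by 2.03 (Cx3cr1), 1.62 (Cxcr4), 1.504 (Ccrl2), 1.13 (Ccr1), 0.69 (Cxcr2), -0.64 (Cxcr3), -0.69 (Ccr3) and -1.68 (Cxcr6) in NASH CD11c-negative against wildtype cells. For NASH CD11c-positive against wildtype cells Cxcr3 was -0.06 relative to it, and the other 7 kept their sign. Of the calls over all genes, 62.9% and 66.2% were higher in NASH CD11c-negative and CD11c-positive against wildtype cells, and 48.5% and 53.6% with quantile normalization.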

How the data were processed

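Sorted liver macrophages were measured on 15 Agilent one-colour (Cy3) arrays, 5 per group, on 2 slides that each held all groups (2, 3 and 3 arrays of NASH CD11c-positive, NASH CD11c-negative and wildtype cells on slide 1). Per the labels, 0.1 ug of RNA per sample was used for labelling. The scanner files hold, per the file headers, the spot intensity, background-subtracted by the authors' scanner software (Agilent Feature Extraction 10.7.3.1, per the submitters' processing notes), and other columns of flags per spot, which were deposited unscaled between arrays. The deposited value table holds log2 values, which matched the log2 intensity minus the array's 75th percentile, centred on the wildtype median (median absolute difference 0.00146). It served as an alternative.

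Control spots (3671 of 62976) and outlier spots (113 to 190 per array) were left out, and no spot was saturated. Log2 intensity minus the 75th percentile of the array's probes was used. Probes were named through RefSeq accessions with the table of GRCm38.p6 (26582 of 55681 probes). A probe was kept when well above background on at least 4 of the 5 arrays of a group, and the brightest kept probe stood for its gene, which gave 13391 genes, 12 of them with a missing value. The differences come from limma 3.58.1 in R 4.3.3 (lmFit, then eBayes; 2-sided; no covariates), fitted to the 15 arrays at once and tested on simulated data. The number of arrays limits the precision.

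The members and gene lists were chosen with earlier results of these data known. The genes named were the 8 receptors, all measured ligands and other chemokine receptors, the 2 signalling genes with the largest change and the largest opposite change per comparison, the 2 brightest members of each marker list shown, defining markers at background, Itgax, Adgre1, Mc4r, and the 2 genes nearest in pattern to each receptor. One further receptor gene is not reported here and is left out of the list's counts. Il5ra and Alox15 were named after their values were seen. The alternatives changed the background correction (normexp, offset 50), the scaling (quantile), the filter (none, or detection on 15 arrays), the blocks (slide, replicate number, both), the arrays used (1 slide, a pair of groups, each array left out), the averaging of probes and the source of the values (deposited table).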

Additional observations from a re-analysis of the deposited data

Results flagged for a closer look

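For 39 genes (the 8 receptors, their measured ligands and the other receptors described), each group of 5 arrays was checked for an array whose gap to its nearest neighbour took more than 0.71 of the range of the group. Chance alone gives about 1 in 20 groups, and 6 of 117 groups had such an array, none of them for the 8 receptors. Ccr1l1 was -2.30 on wildtype replicate 3, where the other 4 arrays lay between -2.12 and -2.08. Ackr2 was 0.86 on NASH CD11c-negative replicate 5 (others 0.67 to 0.72). Cmklr1 was -1.06 on NASH CD11c-positive replicate 4 (others -2.12 to -1.96) and -1.78 on NASH CD11c-negative replicate 2 (others -1.93 to -1.89). Cxcl1 was 1.67 on wildtype replicate 3 (others 1.53 to 1.56), and Rarres2 was -0.65 on NASH CD11c-positive replicate 4 (others -0.87 to -0.81).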

How the results depend on the processing

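The counts of receptors called were 7 to 8 in NASH CD11c-negative against wildtype cells, 4 to 7 in NASH CD11c-positive against NASH CD11c-negative cells and 7 to 8 in NASH CD11c-positive against wildtype cells over all alternatives. Over the arrays left out in turn they were 8 to 8, 5 to 6 and 7 to 8, and the counts of all genes called were 10074 to 10309, 6674 to 7153 and 10136 to 10500. Neither the count of receptors called nor that of all genes called moved by more than 1.5 times. By direction, the receptors lower in NASH CD11c-positive than in NASH CD11c-negative cells numbered 4, against 2 with normexp correction and 2 with quantile normalization, and the counts of signalling genes also moved with quantile normalization. Of the differences of the 8 receptors, 1 reversed under an alternative: Cxcr3 in NASH CD11c-positive against wildtype cells with quantile normalization (-0.11, adjusted p = 0.00276 by limma). The cause was not tested. In all, 11 lost the call and 2 gained it, at most 0.16 in size. Ccr1 could not be fitted under the filter on all 15 arrays, since 1 wildtype array was not above background.

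Same-numbered arrays of different groups were not treated as pairs in the main fit, and the labels state no pairing. The correlation of their deviations from the group means was -0.20 to 0.37. NASH CD11c-positive replicates 1, 4 and 5 correlated best with the same-numbered array of each other group, and replicates 2 and 3 did not. These values do not decide whether the arrays are paired. With the replicate block, 8, 6 and 8 receptors were called, and 10736, 7948 and 10776 of all genes, without changing any receptor's call. With the replicate block and slide, Ccrl2 in NASH CD11c-positive against NASH CD11c-negative cells was -0.09 and passed (adjusted p = 0.00654). The dim probes of Ccr1, Ackr3, Ccr8 and Rgs16 limit how small a change can be seen.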
